A study of Drosophila melanogaster with 6 samples.

Results

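In the follicle cell RNA of Drosophila females expressing human AKT1, 100 genes had higher values in the line with WT AKT1 than in each of the 5 other lines. These genes, called WT-high below, were chosen among the 7726 of 17493 genes in the deposited matrix whose normalized count averaged at least 50 over the 18 libraries. For each gene log2(value + 1) was averaged per group, the mean of each other group was taken from the WT mean, and the smallest of the 5 differences was its score. The 100 highest scores are the WT-high genes. Because the members were chosen by the measured differences between WT and the other groups, these are given as a description and not tested.

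All 6 groups carried the TJ-Gal4 driver, in which the traffic jam gene directs GAL4 to somatic cells of the ovary. WT flies expressed human AKT1 with a FLAG tag from a UAS transgene placed in a landing site. T1, T15 and T5 flies expressed forms with an in-frame tandem duplication in the pleckstrin homology domain, the part of AKT1 that binds membrane lipids. Q79K-W80R flies, W80R-Q79K in the sample labels, expressed a form with both substitutions in that domain, and LP flies carried the empty landing pad and made no human AKT1. Each group had 3 libraries, each from 30 pairs of ovaries of an individual cross, and each form was inserted at the same site, so a group is 1 insertion line. Cells were freed with trypsin and collagenase and passed through a mesh, and the study describes no sort. Q79K-W80R library 3 was assigned by its column name, since the record of that sample lists result files for libraries 1 and 2 only.

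The follicle cells form an epithelium around each germline cyst. Late in oogenesis they secrete the vitelline membrane and then the chorion, the layers of the eggshell, and under steroid hormone signals they mature until the egg is released. The ovary is also wrapped in contractile muscle sheaths, which are innervated and respond to peptides such as proctolin. AKT1 is a kinase that acts downstream of PI3K in growth and survival.

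The deposited values summed to between 23.6 and 34.2 M per library, the highest total being WT library 2. In that library 22.1% of the total came from mitochondrially encoded genes, against 2.77% to 12.4% in the 17 other libraries. Marker genes of other cell types were present in all groups. The summed value of 10 muscle sheath genes was 4464 to 14246 in WT libraries, 3617 to 7448 in the mutant libraries and 4116 to 4772 in LP libraries. The sum of 13 midgut genes, which belong to digestive enzymes, was 12.7, 6450.2 and 5803 in WT libraries, 4.59 to 4279 in mutant libraries and 1501 to 5179 in LP libraries. The sum of 13 follicle cell markers was 1463930 to 1838700 in WT, 660480 to 1806690 in the mutants and 1033350 to 1467780 in LP. These markers include yolk protein and eggshell genes, and sums of different lists do not compare as amounts of cells. In such bulk samples fewer cells of a type and less RNA per cell cannot be told apart.

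**Figure D1:**
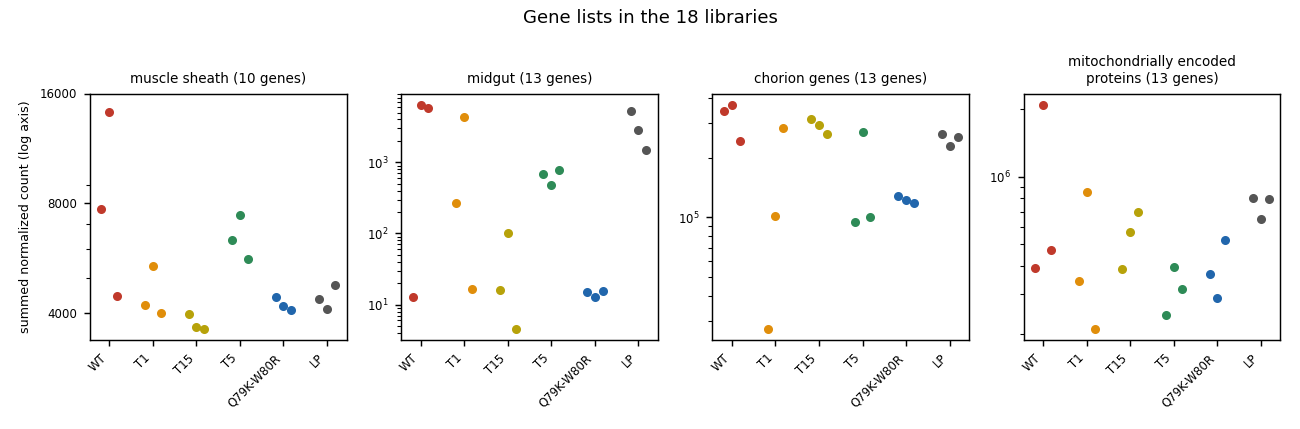
Summed normalized count (log axis) of the genes on 4 lists in each library, 1 point per library, WT at the left and LP at the right. WT library 2 holds the highest muscle sheath sum (14246), WT library 1 has a midgut sum of 12.7 where WT libraries 2 and 3 have 6450.2 and 5803, and the 3 Q79K-W80R libraries lie close together on the muscle, midgut and chorion lists.

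The scores of the WT-high genes ran from 2.72 for mt:ND4L to 0.50 for CG46306, with a median of 0.67, against a median of -0.18 over the 7726 genes. CG42390, CG5065 and CG46306 were the last inside the threshold, with scores of 0.502, 0.498 and 0.495. CG14834, CG32694 and Rbp9 were the first outside it, with 0.489, 0.489 and 0.483, so the limit falls in a continuous range. The median difference of WT from a group was 1.61 on the log2 scale for Q79K-W80R, 1.51 for T1, 1.12 for T5, 0.96 for T15 and 0.95 for LP. The group nearest to WT was T15 for 39 of the 100 genes, LP for 33, T5 for 20, and T1 and Q79K-W80R for 4 each. The group farthest from WT was Q79K-W80R for 47 of them, T1 for 21, T15 for 14, and T5 and LP for 9 each.

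The 3 WT libraries did not carry these genes evenly. In 27 of the 100 every WT library lay above all 15 others, which held for 1.06% of the 7726 genes. WT library 2 was the highest of the WT libraries for 60 genes, library 1 for 36 and library 3 for 4, and library 3 was the lowest for 73. Over the 7726 genes the libraries were highest for 39.0%, 31.3% and 29.7%. The median range between the WT libraries was 1.11 on the log2 scale for the WT-high genes and 0.39 for all genes, and 52 of the 100 had a range above 1. Without WT library 2 the score of 8 genes was 0 or below, without library 3 that of 2 and without library 1 that of 1, and 91 genes had a score above 0 whichever WT library was left out.

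The choice was also made with 1 WT library left out. Of 100 genes chosen without WT library 1, 59 were among the WT-high genes, as were 59 chosen without library 2 and 81 chosen without library 3. In the library left out, 51, 79 and 59 of these choices were above all 5 other group means, against 25.6%, 25.1% and 24.4% of all genes, and 40, 63 and 22 were above all 15 other libraries, against 14.0%, 11.1% and 10.7%. The median difference from the highest of the 5 means was 0.11, 0.45 and 0.11 on the log2 scale. The choice had used the same 15 libraries and so favoured genes that are low in them, and these counts are not a test.

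**Figure D2:**
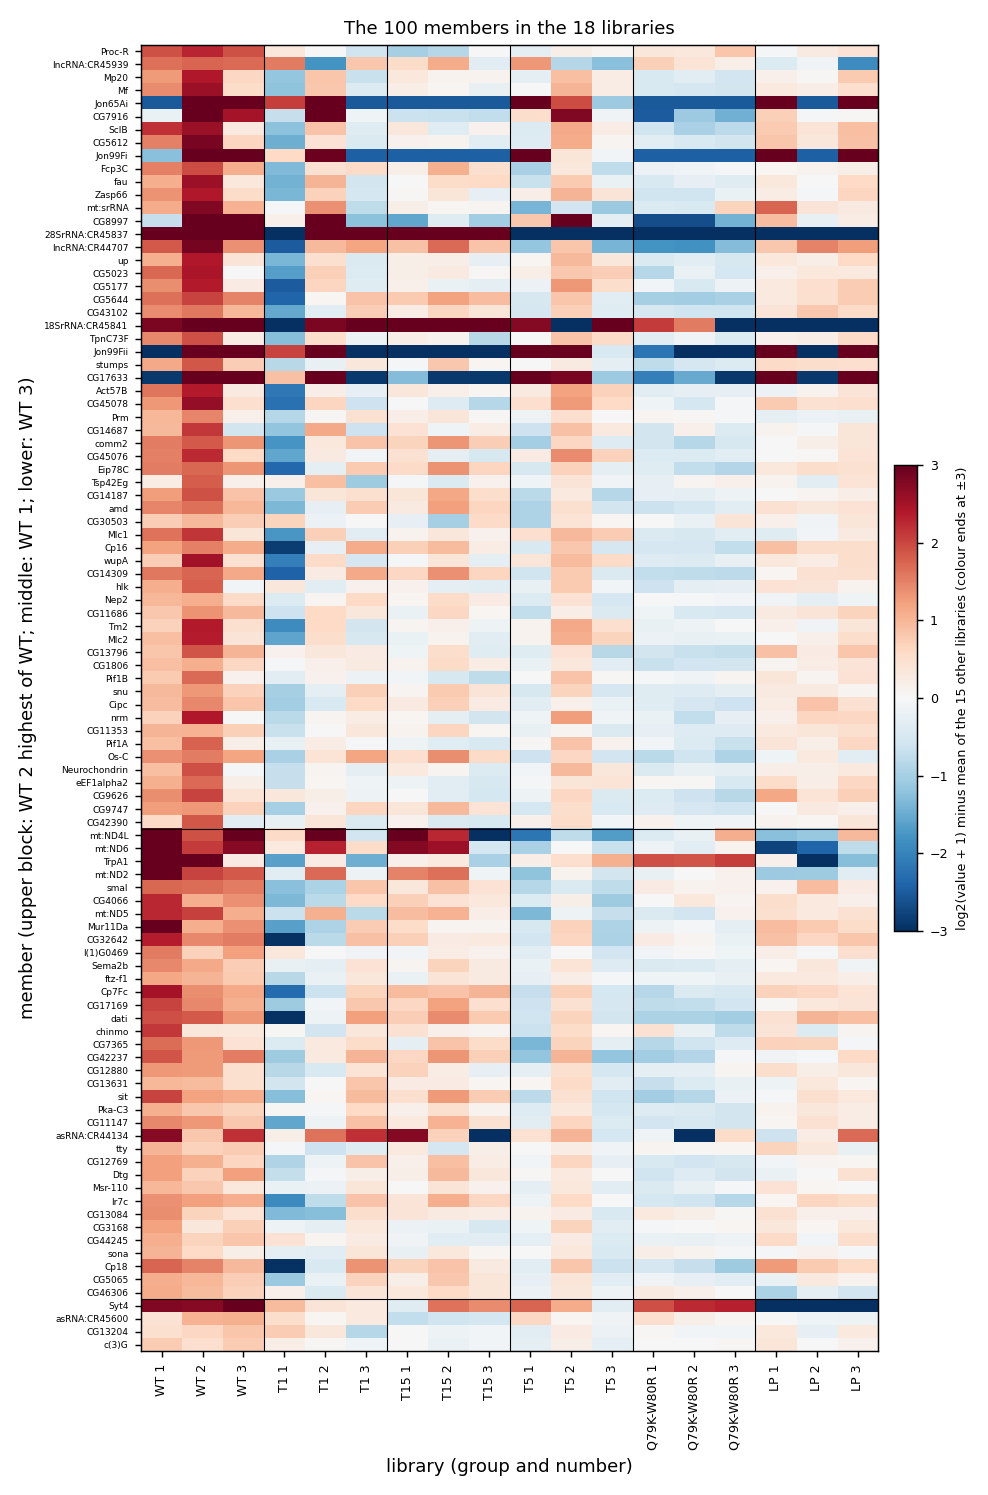
The 100 WT-high genes in the 18 libraries, coloured by log2(value + 1) minus the mean of the 15 libraries that are not WT (colour ends at ±3). Genes are split by the WT library in which they are highest (60 in library 2 above, 36 in library 1, 4 in library 3), and the 3 Jonah protease genes of the upper block are near 0 in WT library 1.

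The genes whose WT libraries stood farthest above the rest encode a receptor for a peptide, a receptor kinase relative, a vesicle protein and a nuclear receptor. With them were CG4066, a listed vitelline membrane gene, and CG32642, which is on no list. Proc-R, the receptor of the neuropeptide proctolin, which drives contraction of visceral muscle, had normalized counts of 181, 237 and 181 in the WT libraries, 23.5 to 85.1 over the 12 mutant libraries and 46, 57 and 64.8 in LP. The lowest WT library was 1.08 above the highest other library on the log2 scale, the widest such gap among the WT-high genes. smal, a relative of the discoidin domain receptor kinases, had 222, 215 and 197 in WT, 27.7 to 124 in the mutants and 73.3, 127 and 79.8 in LP. Neither gene's WT libraries overlapped the others, and the lowest score with 1 WT library left out was 1.41 for Proc-R and 1.05 for smal.

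Syt4 encodes a synaptotagmin, a membrane protein of vesicles that acts in signals sent back from muscle to nerve. Its values were 184, 179 and 233 in WT, 51.3, 34.3 and 32.3 in T1, 20, 82 and 71.7 in T15, 90.2, 57.5 and 20.7 in T5, 103, 126 and 134 in Q79K-W80R and 0, 0 and 0.855 in LP. It was thus listed at or near 0 where no AKT1 transgene was present, intermediate in each mutant form and highest in WT. TrpA1, a cation channel opened by heat and irritants, was carried by 1 library, with 839, 97.7 and 9.54 in WT, 1.83 to 36 in the mutants and 8.79, 0 and 2.61 in LP. Its score was 1.48 with all libraries and -0.09 without WT library 1. These 3 genes were the WT-high genes among the 8 of 27 listed channels, receptors and vesicle genes that averaged at least 50.

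**Figure D3:**
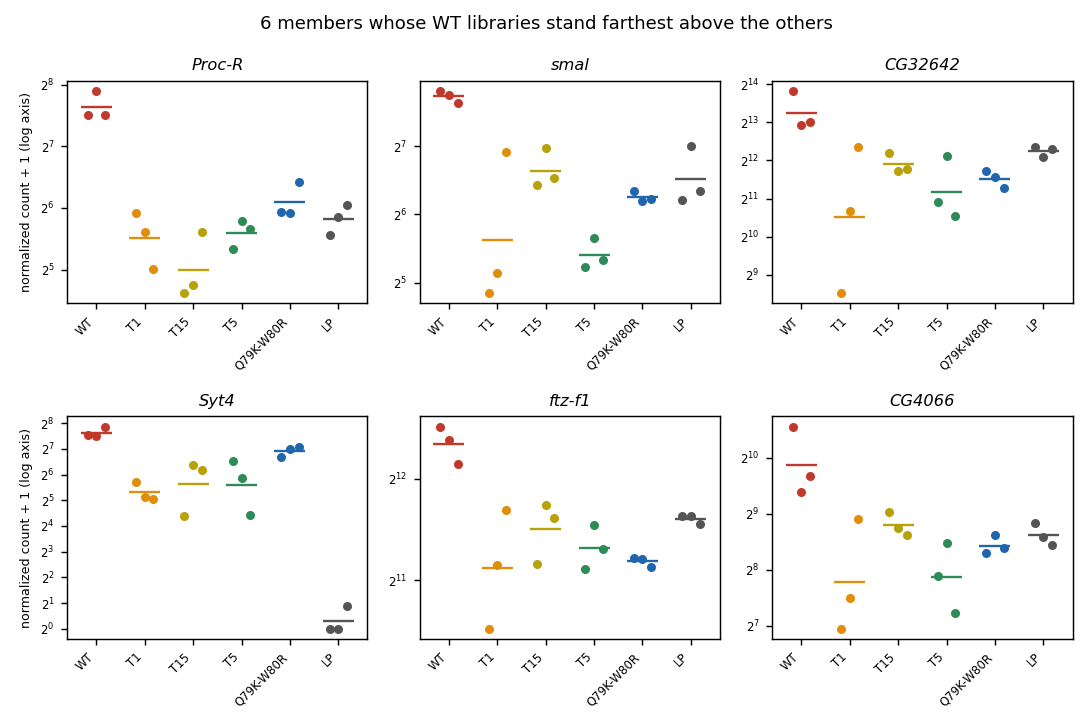
Normalized count + 1 (log axis) of Proc-R, smal, CG32642, Syt4, ftz-f1 and CG4066, 1 point per library and a line at the mean of the log2 values, with WT at the left and LP at the right. All 3 WT libraries lie above the 15 others in each panel, and Syt4 has 0, 0 and 0.855 in LP before the 1 is added.

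A second kind of WT-high gene was listed for the eggshell or for follicle cell maturation. CG32642 and Mur11Da, given first, are on none of these lists, and the cells that express them were not tested. CG32642 had 14488, 7769 and 8258 in WT, 363, 1625 and 5221 in T1, 4687, 3391 and 3496 in T15, 1909, 4436 and 1479 in T5, 3388, 3014 and 2470.1 in Q79K-W80R and 5244, 4369 and 5060.0 in LP. Mur11Da, its neighbour on the X chromosome, named as a mucin-related gene, had 7513, 1981 and 2418 in WT, 304 to 1599.7 in the mutants and 1777, 1629 and 1363 in LP. In both, WT library 1 was the highest and the other WT libraries were also above all 15 others, and in CG32642 the T1 libraries spanned the widest range.

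Of 13 vitelline membrane genes that averaged at least 50, 3 were WT-high, CG4066, Fcp3C and CG14187, and the median score of the 13 was -0.04. CG4066 had 1501, 667 and 817 in WT, 123 to 519 in the mutants and 453, 385 and 348 in LP, and Fcp3C had 6927, 9385 and 5202, 970.4 to 5056 and 2546, 2629 and 2725. In CG14187 T15 library 2 was above WT library 3, with 2916, 4584 and 2202 in WT, 563 to 2732 in the mutants and 1226, 1300.3 and 1411 in LP. The summed value of the list overlapped between WT and the mutants, being 1945630 to 2427190 in WT, 445637 to 2453440 in the mutants and 857034 to 1332820 in LP.

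Of 13 chorion genes 3 were WT-high, with a median score of 0.17 over the list. Cp7Fc had 27261, 12768 and 10631 in WT, 979, 3084 and 7695 in T1, 9328, 8753 and 9813 in T15, 2998, 7955 and 3325 in T5, 2662, 3548 and 3433 in Q79K-W80R and 7785, 7430.5 and 6364 in LP. Its 3 WT libraries were above all others, the T15 libraries came closest, and T1 libraries spanned the widest range. Cp18 had 30752, 25505 and 17818 in WT, 1164, 6659 and 23110.2 in T1 and 22289.7, 15839 and 13812 in LP, so that T1 library 3 and LP library 1 reached into the WT range. Cp16, which stands near Cp18 on chromosome arm 3L, had 6659.7, 8162 and 6205 in WT, 399, 2420.2 and 6229 in T1 and 5422, 4172 and 4144 in LP, with T1 library 3 at the level of the lowest WT library.

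Among regulators, ftz-f1, a nuclear receptor required for the last step of follicle cell maturation, had 5839.8, 5318 and 4513 in WT, 1471 to 3426 in the mutants and 3167, 3175 and 2997 in LP, with no overlap. It was the only WT-high gene among 19 maturation and ovulation genes, whose median score was -0.08. The gene lncRNA:CR45939, which overlaps ftz-f1 on the same strand, had 180.4, 192 and 186 in WT, 15.6 to 168 in the mutants and 42.1, 52.3 and 14.5 in LP, so T1 library 1, at 168, came near the WT level, and reads of the pair may not be separable. chinmo, a zinc finger regulator, had 189.6, 54.2 and 53 in WT, 24.7 to 63.2 in the mutants and 56.1, 31.9 and 45.2 in LP. Only WT library 1 stood apart there, and the score of chinmo without it was 0.09.

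Signalling and guidance genes were few. Sema2b, a secreted semaphorin, had 881, 720.2 and 538 in WT, 241 to 516 in the mutants and 339, 411 and 303 in LP, and comm2, a relative of the guidance gene commissureless, had 589, 722 and 507, 58.6 to 502 and 199.8, 228 and 258. In both the lowest WT library lay just above the highest other library, and they were 2 of 19 guidance and adhesion genes. Dtg, a target of Dpp, was 1 of 19 genes on the EGFR and Ras list and had 219.5, 151 and 218 in WT, 55.9 to 185 in the mutants and 81.3, 93.4 and 127 in LP. Nep2, a neprilysin, a protease that cleaves peptides outside cells, was 1 of 7 listed extracellular enzymes and had 3441, 3669 and 2555, 1206 to 2607 and 1585, 1424 and 1581. In these 2 genes a mutant library, T15 library 2 or T1 library 3, passed the lowest WT library. None of 24 genes of PI3K, Akt and TOR signalling and none of 8 tal and shavenbaby genes was WT-high, and the median scores of these lists were -0.11 and 0.22.

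Muscle genes were the list with the most WT-high genes, 11 of 20 that averaged at least 50, with a median score of 0.60. Mp20, a calponin-like muscle protein, had 627, 1367 and 402 in WT, 116 to 482 in the mutants and 287, 266 and 445 in LP, and Mf, a thick filament protein, had 445, 1009 and 245, 71 to 341 and 204, 193 and 237. up, which encodes troponin T, had 449, 1127 and 279 in WT, 81.4 to 422 in the mutants and 266, 247 and 324 in LP. In each, WT library 2 was highest, and WT library 3 was below T5 library 2, the highest mutant library. Zasp66, TpnC73F, Act57B, Prm, Mlc1, wupA, Tm2 and Mlc2 were likewise highest in WT library 2. wupA, which encodes troponin I, had 235, 809 and 195 in WT and a score of -0.02 without library 2, and the scores of Tm2 and Mlc2 were then 0.00 and 0.03. Act57B, a muscle actin, had 2853, 4914 and 1143 in WT, 213 to 2192 in the mutants and 839, 1018 and 1232 in LP. Of the 11, up, Act57B, Mlc1, wupA, Tm2 and Mlc2 are on the list of 10 marker genes of the muscle sheath, whose summed value was 14246 in WT library 2 and 3617 to 7709 in the 17 other libraries, and the part of muscle cells in their WT values was not tested.

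Digestive genes had most of their WT signal in libraries 2 and 3. Jon65Ai, a Jonah serine protease of the midgut, had 0, 848 and 211 in WT, 23.3, 62.1 and 0 in T1, 154, 21.5 and 1.72 in T5 and 81.6, 0 and 222 in LP, and was listed at 0 in all T15 and Q79K-W80R libraries. Jon99Fi had 1.28, 756 and 159 in WT and 117, 0 and 318 in LP, and Jon99Fii, adjacent to it on 3R, had 0, 1291 and 313 and 121, 0 and 182. At least 1 of these 3 genes passed 50 in WT libraries 2 and 3, T1 library 2, T5 libraries 1 and 2 and LP libraries 1 and 3, while the highest value in T15 or Q79K-W80R was 0.785. Without WT library 2 the scores of Jon65Ai and Jon99Fi were -0.86 and -0.81, and without WT library 3 they were 0.14 and 0.31. Only 1 of the 10 midgut markers that averaged at least 50 was WT-high, and their median score was -1.67. CG8997 and CG7916, adjacent genes on 2L, were high in WT library 2 with 634 and 305 but also in T1 library 2 with 957 and 299, against 14.1 and 15.4 in WT library 1.

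**Figure D4:**
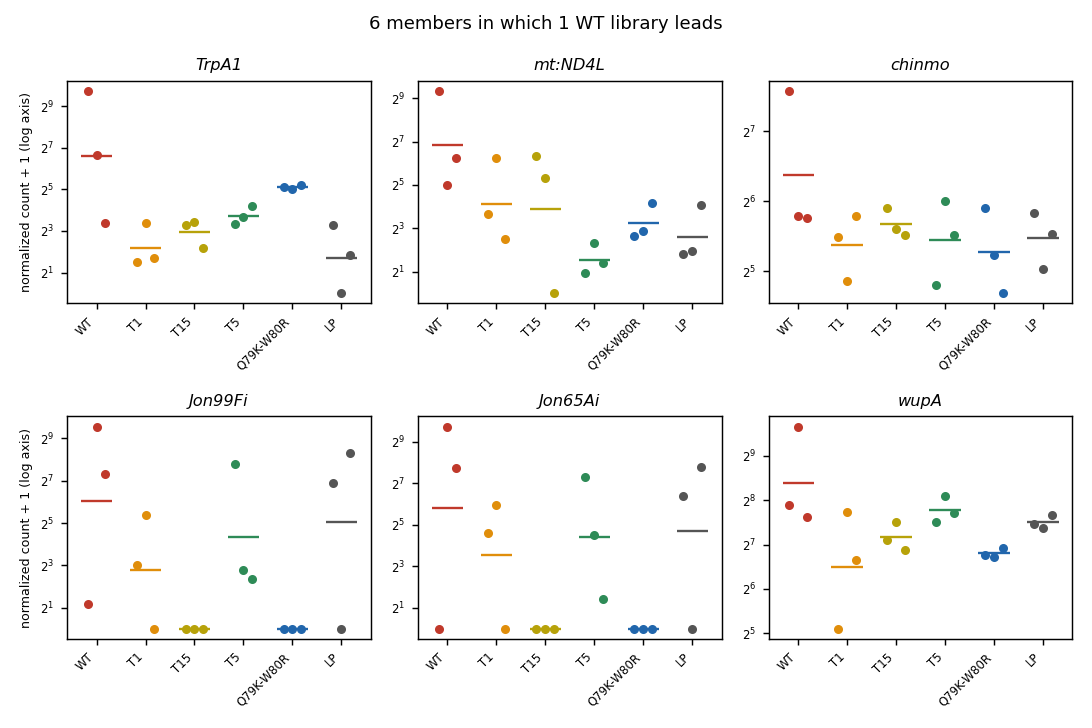
Normalized count + 1 (log axis) of TrpA1, mt:ND4L and chinmo, in which WT library 1 leads, and of Jon99Fi, Jon65Ai and wupA, in which WT library 2 leads, 1 point per library and a line at the mean of the log2 values. WT values of TrpA1 spread from 9.54 to 839 and those of Jon65Ai from 0 to 848.

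Mitochondrial transcripts gave 5 WT-high genes, 4 subunits of complex I of the respiratory chain and the small ribosomal RNA. mt:ND4L had 642, 31 and 74.7 in WT, 0 to 79.9 in the mutants and 2.55, 2.86 and 15.7 in LP, and mt:ND6 had 891, 164 and 256, 18.5 to 259 and 4.58, 6.31 and 21.5. mt:ND2 had 2209, 829 and 734 in WT, 87.8 to 664 in the mutants and 95.3, 96.2 and 162 in LP, with WT library 1 far above the rest. mt:ND5 had 27017, 23437 and 11933 in WT, 2237 to 11883 in the mutants and 7912, 6887 and 7775 in LP. WT library 1 led in these 4 genes although the mitochondrial share of its total was 4.20%, and the 12 mitochondrially encoded protein genes that averaged at least 50 had a median score of 0.05. The sum of all 13 such genes was 392393, 2085270 and 473518 in WT and 648997 to 802015 in LP. WT libraries 1 and 3 thus lay below all LP libraries in that sum. mt:srRNA had 228, 724 and 215 in WT, 38.7 to 270 in the mutants and 349, 136 and 126 in LP, where library 1 passed WT libraries 1 and 3. The rRNA genes 28SrRNA:CR45837, with 7109, 37013 and 14209.8 in WT and 0 in all LP, T5 and Q79K-W80R libraries, and 18SrRNA:CR45841, with 189.9, 1388 and 595 in WT and 0 in LP, belong to repeated copies that share reads, so their values are uncertain.

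The 4 genes highest in WT library 3 were Syt4, c(3)G, CG13204 and asRNA:CR45600. c(3)G, which builds the synaptonemal complex in the germline, had 824, 694 and 828 in WT, 399.6 to 557 in the mutants and 625, 495 and 536 in LP, and was the only WT-high gene among 14 germline markers, whose median score was -0.40. CG13204 had 129.5, 144 and 168 in WT and 50.7 to 159 in the mutants, and asRNA:CR45600 had 359, 550.3 and 557 and 158 to 408. In CG13204 T1 library 1 was above the lowest WT library, while c(3)G did not overlap between WT and the rest. No WT-high gene was a listed marker of follicle cells, hemocytes, fat body or neurons.

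By position, 36 of the 100 genes lie on 3R, 18 on 3L, 16 on X, 11 each on 2L and 2R, 1 on chromosome 4, 5 on the mitochondrial genome and 2 in the ribosomal DNA, and 24.1% of the 7726 genes lie on 3R. Protein-coding genes were 93 of the 100, against 97.1% of the 7726. The WT-high genes averaged 51.5 to 29166 over the 18 libraries with a median of 208, against a median of 887 for the 7726 genes, and 30 averaged under 100. WT-high genes that overlap or have at most 5 genes between them, besides those above, were Cp16 with Prm, CG14187 with CG7365, Pif1A with Pif1B, fau with CG45076 and CG45078, Mlc1 with CG12880 and Mlc2 with CG9747. Pif1A and Pif1B, and fau and its 2 partners, overlap on the same strand, so their reads may not be separable.

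Differences among the lines without WT were not used by the rule, although the level of each line below WT was. The question there is whether the mutant forms differ from LP in genes whose WT level lay above both, and all these comparisons share the 3 LP libraries. Over the 12 mutant libraries, 2 WT-high genes rose and 1 fell against LP by limma at an adjusted p under 0.05, among 100 tested. The 12 libraries entered as 1 group with no term for the form, so the spread mixes that between forms with that within them. Of the 7726 genes 3.38% rose and 3.13% fell, so the WT-high genes were called no more often. Their log2 fold changes had a median of -0.32, against -0.005 for the 7726 genes, and 86 of the 100 were below 0, against 50.8% of those genes.

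Syt4 was one of the 2 that rose. It averaged 68.6 ± 39.3 in the mutants (SD, n = 12) and 0.285 ± 0.494 in LP (SD, n = 3), a fitted log2 fold change of 5.57 ± 0.54 (SE, adjusted p = 2.27e-05). Because LP was listed at 0, 0 and 0.855, this fold depends on the 1 that was added, and it was 6.38 with 0.5 and 3.59 with 5 added. Syt4 also passed the filter on low values, 10 in at least 3 libraries, through the mutant libraries alone, so that it could enter only as a gene that was higher there. CG46306, the last gene inside the threshold, had 286, 256 and 214 in WT, 97.7 to 201 in the mutants and 67.8, 107 and 88.8 in LP, and rose in the mutants by 0.76 ± 0.19 (SE, adjusted p = 0.0267). CG9626 had 109 to 301 in the mutants and 436, 259 and 319 in LP and fell, with a log2 fold change of -0.96 ± 0.25 (adjusted p = 0.0372). Syt4 stayed called when any 1 library was left out, with an adjusted p of at most 0.000498. The call of CG46306 was lost without LP library 1 (adjusted p = 0.214), LP library 3 (0.098) or the form Q79K-W80R (0.072) and with quantile scaling (0.160). That of CG9626 was lost without any 1 LP library (adjusted p = 0.065 to 0.248) or the form Q79K-W80R (0.081), and its adjusted p was 0.050 to 0.055 without T5 library 1 or 3, without Q79K-W80R library 1 or 2, without the form T15 and with no filter.

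In the single forms the counts differed. In Q79K-W80R against LP, 59 of the 93 WT-high genes tested fell, 63.4%, and 6 rose, while 14.7% of genes with a mean of at least 50 fell and 17.2% rose. The median log2 fold change was -0.66 for the WT-high genes and -0.01 for these genes. In T15 against LP 10 of 95 rose and 9 fell, against 13% and 9.97% of genes. In T1 against LP 1 of 97, Syt4, rose and none fell, against 0.492% and 0.583% of genes, and at an unadjusted p under 0.05 3 were higher and 4 lower, against 9% and 7.53% of genes. In T5 against LP 1 of 96, again Syt4, rose and none fell, against 2.31% and 1.46% of genes, and at an unadjusted p under 0.05 5 were higher and 17 lower, against 13% and 11.7% of genes. The median log2 fold changes of the WT-high genes were -0.42 in T1, -0.07 in T15 and -0.24 in T5. Some called genes reached 10 in libraries of 1 group only and could pass the filter only as different, namely Syt4 in each form, TrpA1, CG8997 and CG7916 in Q79K-W80R and the 2 ribosomal DNA genes in T15. Among genes that reached 10 in both groups 57 fell and 4 rose in Q79K-W80R, 9 fell and 7 rose in T15, and none was called in T1 or T5. Whether the forms differ from each other in these counts is not shown by the counts themselves.

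**Figure D5:**
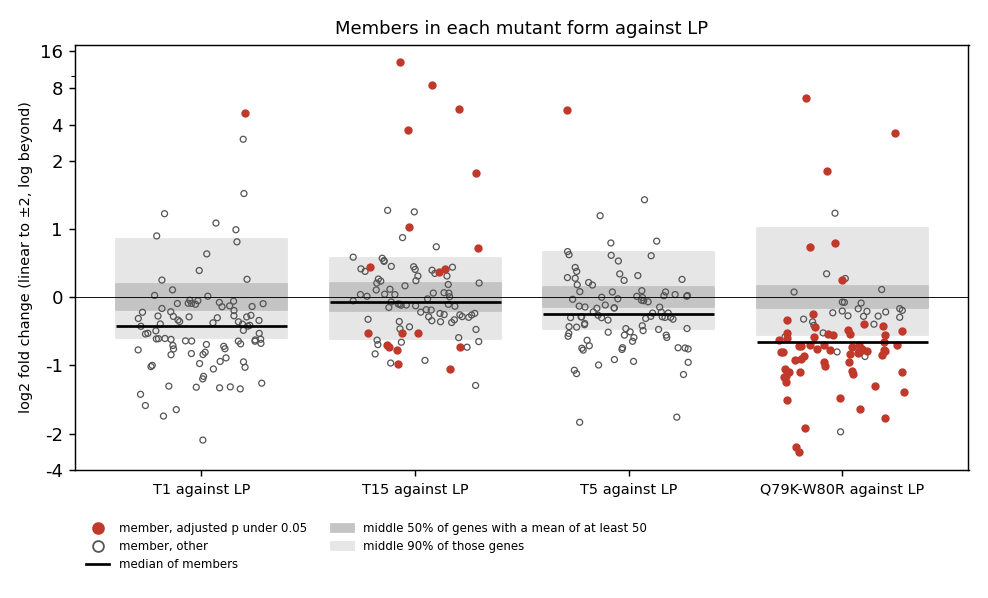
Log2 fold change of the WT-high genes against LP in each mutant form (axis linear to ±2, log beyond), 1 point per gene, filled where the adjusted p is under 0.05, with a line at their median. Grey bands hold the middle 50% and 90% of genes with a mean of at least 50. In Q79K-W80R 59 of 93 points are filled and below 0, and the median is -0.66.

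The genes that fell in Q79K-W80R came from several of the kinds above. lncRNA:CR44707 had 37.7, 37 and 53.5 in Q79K-W80R and 234, 376 and 316 in LP, a log2 fold change of -2.82 ± 0.21 (adjusted p = 4.93e-05). dati, a zinc finger protein, had 297, 298 and 275 in Q79K-W80R and 788, 1166 and 1066 in LP (-1.77 ± 0.14, adjusted p = 5.61e-05). The libraries of these groups did not overlap in either gene, and they are named here after their values were seen. All 3 WT-high chorion genes fell, Cp18 by 1.65 (adjusted p = 0.000451), Cp16 by 1.24 (0.000138) and Cp7Fc by 1.17 (0.000247) on the log2 scale, and so did 12 of the 13 chorion genes listed. For Cp18 the values were 6428, 5663 and 4375 in Q79K-W80R, all below the 22289.7, 15839 and 13812 of LP. Of the 3 WT-high vitelline membrane genes 2 fell, Fcp3C and CG14187, and 7 of the 13 listed. Follicle cell markers were lower with them, with summed values of 897756 to 956526 in Q79K-W80R and 1033350 to 1467780 in LP, without overlap. The markers include the eggshell genes Vm26Ab and Cp36 and yolk protein genes, so this sum is not independent of the eggshell falls. Of these 13 markers 6 fell and 3 rose, with a median log2 fold change of -0.43, and the part of fewer follicle cells in the falls was not tested.

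Of the 11 WT-high muscle genes 8 fell and Prm, which encodes paramyosin, rose, among 13 lower and 3 higher of 25 muscle genes tested. Mf had 120.0, 117 and 114 in Q79K-W80R and 204, 193 and 237 in LP, a log2 fold change of -0.84 ± 0.11 (adjusted p = 0.000813), and up had one of -0.79 ± 0.12 (adjusted p = 0.00158). The sums of the 10 muscle sheath markers, 4077 to 4437 in Q79K-W80R and 4116 to 4772 in LP, overlapped, but their mean log2 values, 8.15 to 8.19 in Q79K-W80R and 8.31 to 8.58 in LP, did not, and 5 of the 10 fell and 1 rose. Midgut sums did not overlap, being 12.7 to 15.4 in Q79K-W80R and 1501 to 5179 in LP, and CG8997 and CG7916 fell with them (-2.56 and -1.92). CG8997 and CG7916 passed the filter on low values through LP alone and could enter only as lower in Q79K-W80R. The part of other cells in these falls was not tested.

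ftz-f1 fell to 2385, 2371 and 2235 in Q79K-W80R, against 3167, 3175 and 2997 in LP, a log2 fold change of -0.42 ± 0.06 (adjusted p = 0.000907), and Sema2b, comm2 and Dtg fell as well (-0.47, -0.81 and -0.60). The 6 that rose were Syt4, TrpA1, mt:ND6, mt:ND2, CG46306 and Prm. Syt4 had a fitted log2 fold change of 6.62 (adjusted p = 1.56e-05), and TrpA1, with 33, 31.4 and 36 in Q79K-W80R and 8.79, 0 and 2.61 in LP, one of 3.39 ± 0.75 (adjusted p = 0.0102). Both genes passed the filter on low values through Q79K-W80R alone and could enter only as higher there. Both folds also depend on the 1 that was added. Proc-R, smal and c(3)G passed in neither direction, with 0.28, -0.27 and -0.17. Thus 28 of the 93 tested did not pass, and 7 were not tested for low values, namely mt:ND4L, the 3 Jonah genes, CG17633 and the 2 ribosomal DNA genes.

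The count in Q79K-W80R depended on the spread that the test used. In the fit of all 18 libraries, which estimates 1 spread over the 6 groups, 8 of the 93 genes fell and 2 rose, against 4.46% and 9.11% of genes with a mean of at least 50. The 8 were CG1806, CG9626, CG13796, lncRNA:CR44707, Pka-C3, stumps, CG11353 and Cipc. The spread of that fit takes in the WT libraries, whose values chose the genes. The median range between WT libraries was 1.11 on the log2 scale over the WT-high genes and 0.39 over the 7726 genes. Over the WT-high genes this range was smallest in Q79K-W80R and LP, with medians of 0.26 and 0.45, against 1.90 in T1, 1.04 in T5 and 0.59 in T15. Over the 7726 genes the medians were 0.12 in Q79K-W80R, 0.20 in T15, 0.22 in T5, 0.23 in LP and 0.49 in T1, so LP was not among the smallest there. In 63 of the 100 genes all Q79K-W80R libraries lay below all LP libraries, against 24.8% of the 7726 genes, and in 9 all lay above, against 24.3%. The genes that fell numbered 40 without Q79K-W80R library 1 (8.63% of genes), 42 without library 2 (7.91%) and 49 without library 3 (10.1%).

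In T5 a single library stood apart, and in T1 libraries 1 and 3 lay toward opposite ends. T5 library 2 was the highest of its group for 89 of the 100 genes, against 39.0% of all genes, and reached above the lowest WT library in 42, against 77.9%. T1 library 1 was the lowest of its group for 72, against 30.2%. T1 library 3 was the highest for 50, against 39.0%, and T1 library 2 for 38, against 28.0%. Without T5 library 2, 32 WT-high genes fell in T5 against LP and none rose, against 4.66% and 6.85% of genes, so more genes were called in all. Without T1 library 3, 15 fell in T1 against LP and 1 rose, against 7.4% and 9.31% of genes. Leaving out a library that was the highest of its group in many WT-high genes lowers the group mean of those genes by construction. The counts without T5 library 2 or T1 library 3 are therefore not read as results about the WT-high genes. Other omissions within these forms gave 0 calls, namely T1 library 1 or 2 and T5 library 1 or 3, where the share of all genes called was not taken. Syt4, the gene called in both forms with all libraries through a filter it passed in the mutant libraries alone, had fitted log2 fold changes of 5.01 in T1 (adjusted p = 0.0212) and 5.31 in T5 (0.0144), which depend on the 1 added. Without an LP library its adjusted p was 0.072 to 0.121 in T1, and in T5 it stayed called only without LP library 2 (adjusted p = 0.0413). Without a T1 or T5 library Syt4 did not pass the filter on low values, being near 0 in LP.

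T15 had calls in both directions. The genes that rose included Syt4 (5.35, adjusted p = 0.00336), CG46306 (1.03, 0.0128), Cp7Fc (0.37, 0.0297), comm2 (0.73, 0.0322), Nep2 (0.45, 0.0361), Prm, mt:ND2, mt:ND6 and the 2 ribosomal DNA genes, which were at 0 in LP and whose values are uncertain. Those that fell were CG9626 (-1.05, 0.0171), CG45078, eEF1alpha2, Pif1A, Pif1B, CG5612, CG3168, asRNA:CR45600 and Mur11Da (-0.52, 0.0446). CG46306 stayed called with each of the 6 libraries left out. Syt4 and the ribosomal DNA genes passed the filter through T15 alone and were not tested without a T15 library, so no stability is read for them. The calls in either direction, 19 with all libraries (23% of genes), numbered 3 without T15 library 2 (7.38%), 4 without LP library 1 (4.53%), 6 without T15 library 1 (4.74%) and 7 without LP library 3 (9.84%). In the fit of all 18 libraries 5 rose and none fell, against 3.62% and 2.67% of genes. That fit again takes in the WT libraries, whose values chose the genes.

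The form with substitutions and the 3 with duplications were compared directly within the 12 mutant libraries. TrpA1 was higher in Q79K-W80R, with 33, 31.4 and 36, than in T1 with 1.83, 9.54 and 2.19, T15 with 8.85, 9.82 and 3.47 and T5 with 9.1, 11.6 and 17.4. Its log2 fold change was 2.14 ± 0.44 (adjusted p = 0.0337). Of the duplication libraries only T5 libraries 2 and 3 reached 10, so TrpA1 passed the filter on low values only with the Q79K-W80R libraries. It could thus enter only as a gene that was higher there. CG1806 was lower, with 116, 124 and 125 in Q79K-W80R, 181, 206 and 224 in T1, 198, 274 and 217 in T15 and 162, 232 and 148 in T5, a log2 fold change of -0.72 ± 0.15 (adjusted p = 0.0325). They were the only calls among 99 WT-high genes tested, against 1.58% of genes higher and 0.531% lower, and the median log2 fold change was -0.36, against -0.01 for all genes with a mean of at least 50. Neither call held without any 1 of the Q79K-W80R libraries, when the adjusted p was 0.161 or more, nor without T15 library 2, when it was 0.054 for both. TrpA1 also lost its call without T15 library 1 (0.053) or T5 library 2 (0.058) and in the fit of all 18 libraries (0.217). The spread of that fit takes in the WT libraries, which ranged over 6.32 on the log2 scale for TrpA1. Without T1 library 1, 1 gene was higher and 10 were lower, against 4.13% and 3.04% of genes. T1 library 1 was the lowest of its group for 72 WT-high genes, so leaving it out raises their T1 mean by construction. These counts are therefore not read as results about the WT-high genes.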

How the data were processed

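RNA-Seq of follicle cells from 6 groups of 3 libraries was analysed. Libraries were made with a TruSeq stranded mRNA kit. Per the labels, the submitters used bcl2fastq 2.18.0.12, Bowtie and RSEM 1.3.1. The Bowtie version and genome build were not given in the sources used here, and no coordinates are printed. The authors deposited a signal per gene, the RSEM count after DESeq2 normalization of the 18 libraries, and its values are not whole reads. Judged by the steps between low values, 1 read added 1.23 to 1.34 in WT libraries and 0.79 to 0.85 in Q79K-W80R libraries, so the depth behind a value is known only roughly. Gene names, arms and neighbours came from the Ensembl annotation of the assembly BDGP6.54, in which 17371 of 17493 gene IDs had a symbol.

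The score was computed on log2(value + 1). Comparisons without WT were made with limma 3.58.1 in R 4.3.3 (lmFit, eBayes with a trend) on log2(value + 1), keeping genes that reached 10 in 3 or more libraries of the comparison, with Benjamini-Hochberg adjustment over all genes tested, and a gene was called at an adjusted p under 0.05. Fold changes on this scale understate the change of low genes. The 6 comparisons were the 12 mutant libraries against LP, each mutant form against LP, and Q79K-W80R against the 3 duplications within a fit of the 12 mutant libraries as 4 groups. In the first of them the 12 libraries formed 1 group, with no term for the form. The study's DESeq2 test was not run, since the values are not counts.

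The members, the 11 gene lists, the 7 marker lists and the naming rule were chosen with earlier results of these data known. The rule names the 12 highest scores, the 3 genes on each side of the threshold, up to 6 members per list, the genes with the smallest adjusted p over the mutants and between the forms, 4 members per leading WT library, the 6 with the widest gap and members that lie near each other. Alternatives were other pseudocounts, TMM or quantile scaling, other filters, a fit without the trend, a replicate block, 1 fit over all 18 libraries, and the omission of each library or mutant form. Figures were drawn with matplotlib in Python.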

Additional observations from a re-analysis of the deposited data

Results flagged for a closer look

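TrpA1 and CG1806 were picked out because their levels differed between the form with substitutions and the forms with duplications by the test of that difference. The log2 fold change of Q79K-W80R over the 3 duplications was 2.14 for TrpA1, higher in 3 of 3 Q79K-W80R libraries than in all 9 others, and -0.72 for CG1806, lower in 3 of 3. The share of all genes that separate in this way was not taken, so the separation is not read as particular to these genes. TrpA1 passed the filter on low values only with the Q79K-W80R libraries, where it was higher. With 3 libraries per group, no test for a single outlying library was made within a group.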

How the results depend on the processing

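Of the 100 WT-high genes, 87 to 99 were chosen again with another pseudocount, TMM or quantile scaling and 67 with group medians, but 48 with a mean of at least 10 and 52 with a mean of at least 200. With 1 library left out 59 to 100 were chosen again, 59 without WT library 1 and 59 without WT library 2. Of the calls, those over the mutants against LP were 3, 1 without the form Q79K-W80R, and 1 to 4 with a library left out. T1 against LP had 1 call, 0 with a mean of at least 50, 2 in the fit of all 18 libraries and 0 to 16 with a library left out. T15 had 19, 10 without a trend, 5 in the fit of all 18 and 3 to 17 with a library left out. T5 had 1, 0 with a mean of at least 50 and 0 to 32 with a library left out. Q79K-W80R had 65, 10 in the fit of all 18 and 41 to 62 with a library left out, and against the 3 duplications it had 2, 1 with a mean of at least 50, 1 in the fit of all 18 and 0 to 11 with a library left out. A fit of fewer genes or libraries, or of all 18, changes the spread or the number of genes tested by its construction, and no other cause was tested. The fit of all 18 takes in the WT libraries, whose values chose the genes. Shares of all genes called are given above for some of these settings only. The counts here are therefore not read as results about the WT-high genes. No direction of a gene called over the mutants or between the forms reversed.

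Library numbers are shared between groups, but in no pair of the groups that were tested against each other did all 3 same-numbered pairs of libraries deviate together (correlation above 0.1). They did between WT and T15 (0.26, 0.28 and 0.22), where no test was made and a pairing leaves the difference of means as it is. With the replicate block the calls were 0 in T1, 30 in T15, 2 in T5, 66 in Q79K-W80R, 3 over the mutants and 2 against the duplications. The share of all genes called with the block was not taken, so no change in these counts is read as particular to the WT-high genes. Low values limit what can be seen, since 30 of the 100 genes averaged under 100.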
